A study of Mus musculus with 8 samples.

Results

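Macrophages instruct T cells through a small set of surface proteins, and mRNA of 9 genes for such proteins was followed here in bone marrow derived macrophages (BMDMs) of mice with and without MKL1. The genes were chosen by symbol: Cd40, Cd80, Cd86, Cd274, Pdcd1lg2, Icosl, Cd83, Havcr2 and Vsir. All 9 are among the 53735 gene symbols of the count tables, and 8 of them were among the 14418 genes expressed highly enough to be tested, the exception being Pdcd1lg2. MKL1 is a coactivator of serum response factor, and MKL1 moves to the nucleus when actin polymerises.

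BMDMs were grown for 7 days from bone marrow of male mice, 6 months old, that carried an Ang II minipump (1.44 mg/kg/day) for the 7 days before marrow was taken. WT mice were Mkl1+/+, Apoe-/- and KO mice were Mkl1-/-, Apoe-/-, both of C57BL/6J background, so the controls lack Apoe as well and every library comes from an Ang II infused mouse. The Mkl1 knockout was global and not limited to macrophages. Bulk RNA-seq covered 8 libraries in 2 experiments, with WT libraries 1 and 2 and KO libraries 5 and 6 in experiment 1, and WT libraries 3 and 4 and KO libraries 7 and 8 in experiment 2. The labels number the libraries and do not say outright that each is a separate mouse, so p-values measure the spread between these libraries, which may in part be technical.

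An antigen-presenting cell gives a T cell its antigen on MHC molecules and adds a second, costimulatory signal. CD80 and CD86 give it through CD28 and withdraw it through CTLA-4, ICOSL gives it through ICOS, and CD40 receives the answering signal of CD40 ligand on the T cell. PD-L1 (Cd274) and PD-L2 (Pdcd1lg2) restrain T cells through PD-1, and VISTA (Vsir) and TIM-3 (Havcr2) are checkpoint proteins that macrophages carry themselves. CD83 marks mature dendritic cells and keeps MHC class II and CD86 at the surface. CD40 and TIM-3 are thus receptors, while the others act mainly as ligands. In macrophages, NF-κB and interferon signals are known to raise several of these genes.

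The libraries held 33977799 to 41584540 counts. Mkl1 had 25.6 to 29.6 CPM (read counts scaled to library size) in the WT libraries and 10.4 to 20.9 CPM in the KO libraries, so its reads were fewer in KO but not absent. Whether these reads fall in the deleted part of the gene cannot be read from counts per gene. Macrophage markers summed to 16010 to 36490 CPM over 10 genes, with Lyz2 (lysozyme) at 7606 to 23940 CPM, and they differed between groups too, with 3 lower and 5 higher in KO of experiment 1 and 2 lower and 2 higher in experiment 2. Of all genes, 28.1% were lower and 27.0% higher in experiment 1, and 8.29% and 7.52% in experiment 2. Adgre1, which encodes F4/80, fell in experiment 1 (log2 fold change -2.11 ± 0.11) and rose in experiment 2 (0.91 ± 0.16), and Csf1r, the receptor of the growth factor M-CSF, rose in experiment 1 (0.82 ± 0.12) and fell in experiment 2 (-1.28 ± 0.25). Lyz2 fell in experiment 1 (-0.71 ± 0.19) and was not called in experiment 2 (0.45 ± 0.35). Groups of the same experiment were not the most alike. WT of experiment 1 and KO of experiment 2 were closest (395 genes more than 2-fold apart), and WT of experiment 2 and KO of experiment 1 were farthest from each other (2550 genes). KO against WT was compared within each experiment, as the design of the series sets out, with the quasi-likelihood test of edgeR, p-values being adjusted after Benjamini and Hochberg over all 14418 genes, and every adjusted p below comes from this test unless another is named. Log2 fold changes are given ± standard error, and a gene is called when its adjusted p is under 0.05.

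The sequence just before the transcription start was available from RefSeq (GRCm38.p6) for 6 of the 9 genes. It is shown for Icosl and Cd274, which were lower in KO in both experiments, and for Vsir, which was higher in both. Cd80, also lower in both, is not shown because its RefSeq start lies inside the gene as GENCODE M21 annotates it, so the bases before it are not upstream of the gene. Bases are in lower case, and capitals mark a κB motif, a sequence bound by NF-κB.
Icosl (chr10:78069118-78069301, plus strand): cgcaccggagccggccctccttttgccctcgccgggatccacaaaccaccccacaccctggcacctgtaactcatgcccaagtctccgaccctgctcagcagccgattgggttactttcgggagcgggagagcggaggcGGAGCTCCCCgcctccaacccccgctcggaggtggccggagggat
Cd274 (chr19:29367188-29367437, plus strand): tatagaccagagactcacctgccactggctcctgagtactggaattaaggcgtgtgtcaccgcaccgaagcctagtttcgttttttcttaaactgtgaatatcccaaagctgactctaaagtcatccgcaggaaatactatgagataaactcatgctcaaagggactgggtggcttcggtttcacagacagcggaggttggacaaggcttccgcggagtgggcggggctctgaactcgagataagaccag
Vsir (chr10:60346601-60346850, plus strand): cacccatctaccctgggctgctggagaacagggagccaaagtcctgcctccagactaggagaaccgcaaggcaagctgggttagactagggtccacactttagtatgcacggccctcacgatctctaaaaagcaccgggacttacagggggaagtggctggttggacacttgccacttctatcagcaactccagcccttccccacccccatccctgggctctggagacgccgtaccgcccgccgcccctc
For Icosl the run stops where an annotated transcript of GENCODE M21 begins. Its capitals lie at positions -111 to -102 from the RefSeq start. In the 250 bases before each of 32851 RefSeq starts, on both strands, 7.25% held a κB motif, 7.02% the interferon gamma element TTCNNNGAA, 2.98% the core of the interferon-stimulated response element and 1.47% a CArG box, the motif of serum response factor. Among the 6 genes, Icosl and Pdcd1lg2 held a κB motif in this window, and no gene held any of the other motifs, the CArG box included. A match is a description of letters and does not show that a factor binds there, and letters outside the window were not searched.

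Per length of exon, Vsir was the most abundant of the 9 genes on average over the 8 libraries, at 72.5 CPM per kb, followed by Cd274 (28.4 CPM per kb) and Cd83 (22.3 CPM per kb). Icosl, Cd40 and Havcr2 averaged 14.1, 12.1 and 11.8 CPM per kb. Cd86 and Cd80, the classical pair of B7 ligands, were lower, at 4.82 and 1.81 CPM per kb. Pdcd1lg2 was near the limit of detection, at 0.0956 CPM per kb. The order changed with the group. In WT of experiment 2, Cd274 (57.4), Cd83 (42.6), Icosl (40.2) and Cd40 (39.9 CPM per kb) all stood above Vsir (31.0 CPM per kb), while in the other groups Vsir led.

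**Figure D1:**
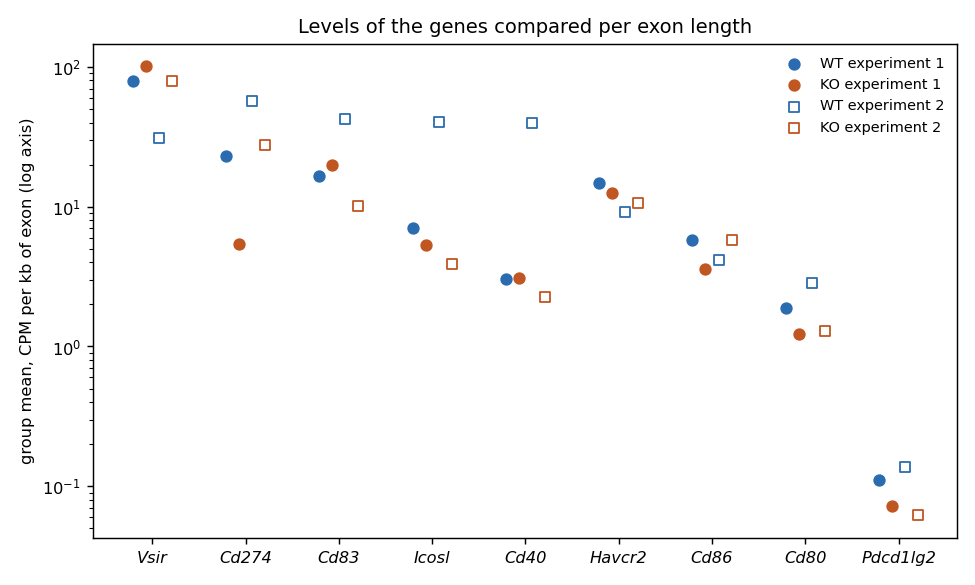
Mean level of each gene in each of the 4 groups (2 libraries each), in CPM per kb of exon on a log axis, with genes ordered by their mean over 8 libraries. Vsir leads in 3 groups, and in WT of experiment 2 Cd274, Cd83, Icosl and Cd40 lie above it.

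In experiment 1, Cd80, Cd86, Cd274 and Icosl fell in KO and Cd83 and Vsir rose, 6 of the 8 tested genes, where 55.1% of all genes were called. In experiment 2, Cd40, Cd80, Cd274, Icosl and Cd83 fell and Vsir rose, again 6 of 8, where 15.8% of all genes were called. The median log2 fold change of the 8 genes was -0.32 in experiment 1 and -1.09 in experiment 2, against 0.01 over all genes in both. Cd80, Cd274, Icosl and Vsir were called in the same direction in both experiments, 4 of 8 genes, where 4.38% of all genes were. Cd83 was called in opposite directions, as were 6.34% of all genes. The 2 KO libraries did not overlap the 2 WT libraries for 79.9% of all genes in experiment 1 and 65.4% in experiment 2, so a lack of overlap within 1 experiment is common. The count of 6 in experiment 2 was 2 without KO library 8 (Cd40 and Icosl) and 4 without KO library 7. Calls over all genes went from 2279 to 232 and 842 in the same fits, and 6 of the 8 genes had an unadjusted p under 0.05 in both. In bulk RNA, fewer cells that express a gene and less RNA per cell cannot be told apart.

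**Figure D2:**
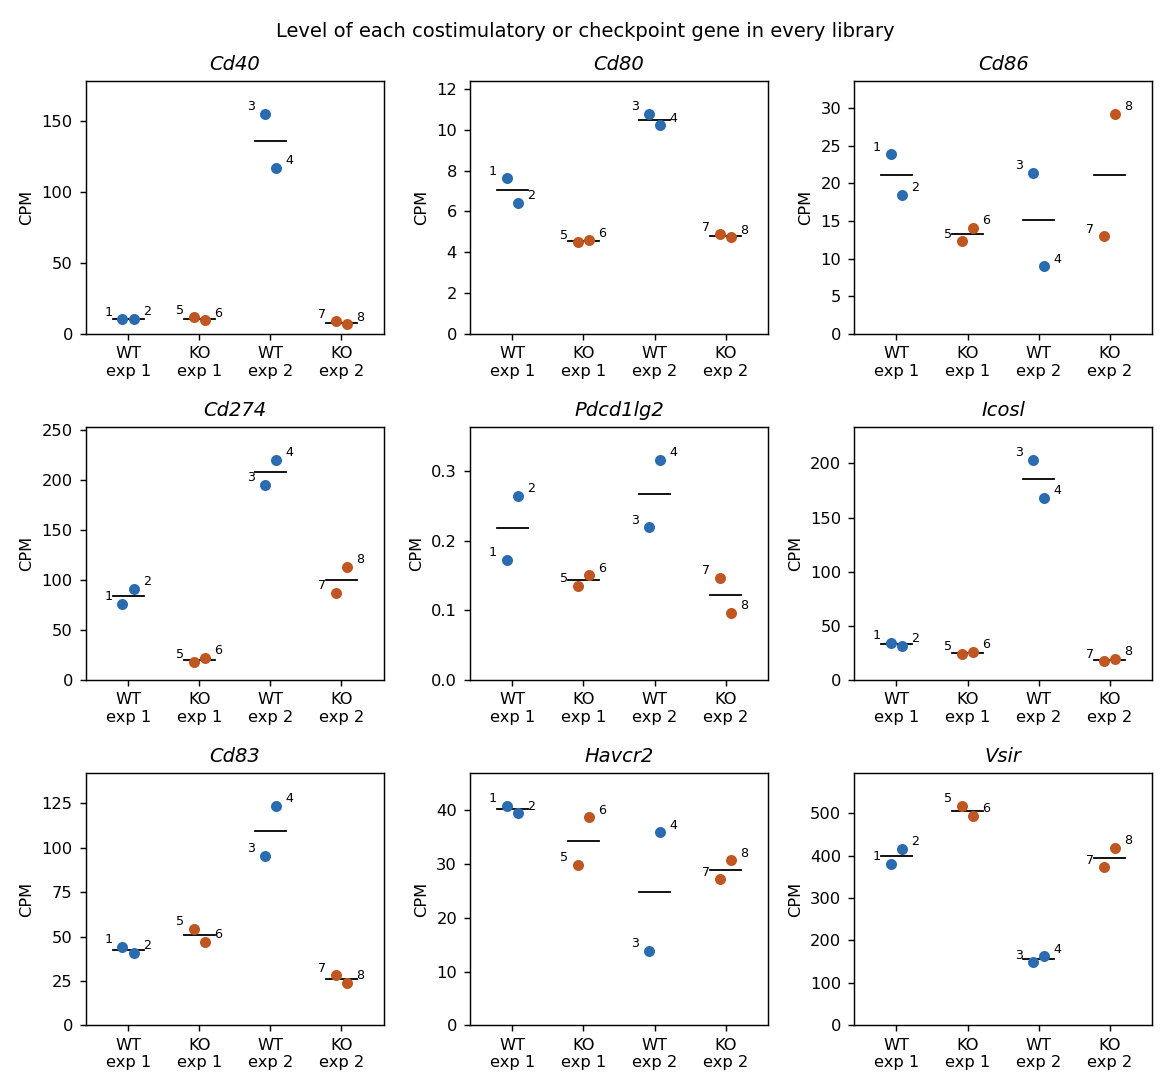
Level of each gene (CPM, axis from 0) in each library, numbered 1 to 8, by group, WT in blue and KO in orange, with a bar at the mean of each pair. Cd40 and Icosl are high in WT libraries 3 and 4 alone, Vsir is low in the same libraries, and Cd274 is lower in KO than in WT of its own experiment in both.

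**Figure D3:**
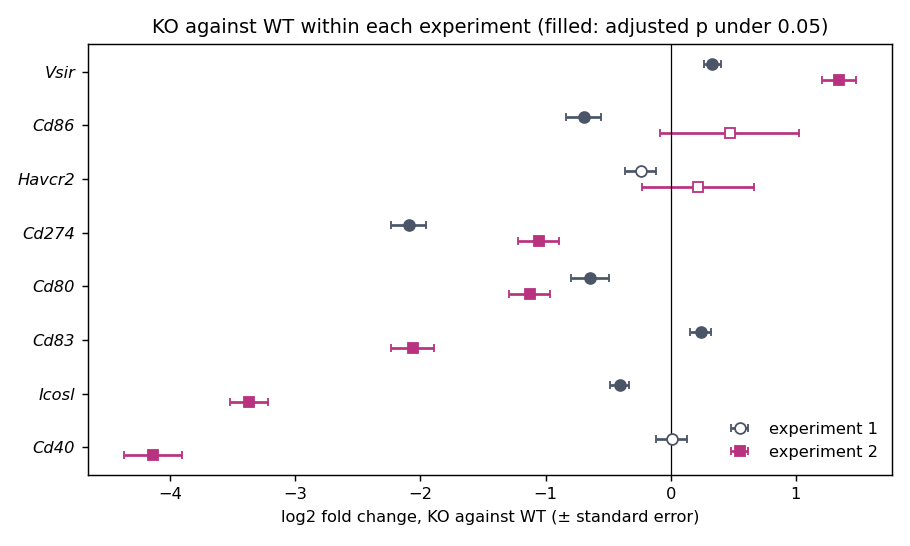
Log2 fold change of KO against WT (± standard error) for the 8 tested genes, with circles for experiment 1 and squares for experiment 2, filled where the adjusted p is under 0.05. Cd80, Cd274 and Icosl lie below 0 and Vsir above 0 in both experiments, and the largest decreases are those of Cd40 (-4.14) and Icosl (-3.37) in experiment 2.

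Cd40 (chromosome 2, 165055627 to 165072948, plus strand) encodes the receptor through which helper T cells license antigen-presenting cells. WT libraries 1 and 2 had 10.3 and 10.4 CPM and KO libraries 5 and 6 had 11.5 and 9.55 CPM. WT libraries 3 and 4 had 155 and 117 CPM and KO libraries 7 and 8 had 8.86 and 6.60 CPM. The genotypes overlapped in experiment 1 and lay far apart in experiment 2, where Cd40 was 17.6-fold lower in KO (log2 fold change -4.14 ± 0.23, adjusted p = 0.00372). In experiment 1 the log2 fold change was 0.01 ± 0.12 (adjusted p = 0.963). The 2 effects differed, with a change of -4.16 ± 0.26 between experiments (adjusted p = 0.000153), and 41.6% of all genes showed such an interaction. The WT groups differed too. Cd40 was 13.1-fold higher in WT of experiment 2 than in WT of experiment 1 (log2 difference 3.71 ± 0.19, adjusted p = 0.000204), a comparison that shares WT libraries 3 and 4 with the one above and in which experiment and culture cannot be told apart. The 6 libraries other than WT 3 and 4 spanned 6.60 to 11.5 CPM.

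Icosl (chromosome 10, 78069302 to 78083913, plus strand), the ligand of ICOS, followed the same libraries. It had 33.8 and 31.4 CPM in WT libraries 1 and 2 and 24.1 and 25.5 CPM in KO libraries 5 and 6. It had 203 and 168 CPM in WT libraries 3 and 4 and 17.0 and 19.0 CPM in KO libraries 7 and 8. The 4 KO libraries were all below the 4 WT libraries, and 12.7% of all genes had no overlap in one direction or the other. The fall was 1.32-fold in experiment 1 (log2 fold change -0.41 ± 0.08, adjusted p = 0.00228) and 10.3-fold in experiment 2 (-3.37 ± 0.15, adjusted p = 0.00322). It differed in size between the experiments (-2.97 ± 0.16, adjusted p = 9.15e-05), and WT of experiment 2 was 5.7-fold above WT of experiment 1 (log2 difference 2.51 ± 0.12, adjusted p = 0.000142). Across the 8 libraries the log2 levels of Cd40 and Icosl had a Pearson correlation of 0.98, given as a description, since the libraries share 4 groups.

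Cd80 and Cd86 encode ligands of the same receptors. Cd80 (chromosome 16, 38455561 to 38496335, plus strand) had 7.62 and 6.43 CPM in WT libraries 1 and 2 against 4.49 and 4.58 CPM in KO libraries 5 and 6. It had 10.8 and 10.2 CPM in WT libraries 3 and 4 against 4.88 and 4.73 CPM in KO libraries 7 and 8. All 4 KO libraries lay within 4.49 to 4.88 CPM, below all WT libraries, and 12.7% of all genes had no overlap in one direction or the other. The log2 fold change was -0.65 ± 0.15 in experiment 1 (adjusted p = 0.00684) and -1.13 ± 0.16 in experiment 2 (adjusted p = 0.0169), and a difference between the 2 did not pass (-0.49 ± 0.20, adjusted p = 0.0792). Without WT library 1 the call of experiment 1 was lost (adjusted p = 0.0591, the highest of 9 alternatives), and so was that of experiment 2 without WT library 3, KO library 7 or KO library 8 (0.0640, 0.0618 and 0.0821, the highest of 9). Fitted over both experiments, Cd80 was lower in KO (-0.88 ± 0.14, adjusted p = 0.0179). In WT it was 1.49-fold higher in experiment 2 than in experiment 1 (log2 difference 0.58 ± 0.14, adjusted p = 0.0176), a call lost without WT library 1, 2 or 3 (0.0512, 0.130 and 0.0840).

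Cd86 (chromosome 16, 36603869 to 36666081, minus strand) varied between replicates of experiment 2 more than the genotypes differed. It had 23.9 and 18.5 CPM in WT libraries 1 and 2, and 12.3 and 14.1 CPM in KO libraries 5 and 6. In experiment 2 WT libraries 3 and 4 had 21.4 and 8.97 CPM, and KO libraries 7 and 8 had 13.0 and 29.2 CPM. These replicates differed 2.39-fold in WT and 2.26-fold in KO, and the genotypes overlapped in experiment 2 but not in experiment 1. Cd86 was lower in KO in experiment 1 (log2 fold change -0.69 ± 0.14, adjusted p = 0.00517) and not called in experiment 2 (0.47 ± 0.55, adjusted p = 0.592). With the spread estimated over all 8 libraries the call of experiment 1 was lost (adjusted p = 0.268, the highest of 9 alternatives, the lowest being 2.2e-11). The count of Cd86 divided by that of Cd80 in the same library was 3.13, 2.88, 1.99 and 0.879 in WT libraries 1 to 4 and 2.74, 3.09, 2.66 and 6.18 in KO libraries 5 to 8.

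Cd274 (chromosome 19, 29367455 to 29388095, plus strand) encodes PD-L1. WT libraries 1 and 2 had 75.7 and 91.2 CPM and KO libraries 5 and 6 had 17.6 and 21.7 CPM. WT libraries 3 and 4 had 195 and 220 CPM and KO libraries 7 and 8 had 86.9 and 113 CPM. KO lay below WT within each experiment, while KO of experiment 2 and WT of experiment 1 overlapped. Cd274 was 4.24-fold lower in KO in experiment 1 (log2 fold change -2.09 ± 0.14, adjusted p = 0.0001) and 2.08-fold lower in experiment 2 (-1.06 ± 0.17, adjusted p = 0.0205), and the fall was larger in experiment 1 (difference 1.03 ± 0.23, adjusted p = 0.0110). The call of experiment 2 was lost without KO library 7 or 8 (adjusted p = 0.0618 and 0.0600). Over both experiments the log2 fold change was -1.57 ± 0.24 (adjusted p = 0.0143). WT of experiment 2 was 2.49-fold above WT of experiment 1 (log2 difference 1.32 ± 0.16, adjusted p = 0.00155). Set against Cd80 in the same library, KO libraries 5 and 6 held 3.92 and 4.75 counts of Cd274 per count of Cd80, and the other 6 libraries held 9.93 to 23.9. GENCODE M21 places an antisense gene opposite Cd274.

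Cd80 and Cd274 were the 2 genes called over both experiments together, of 8 tested, where 7.12% of all genes were called, 3.41% lower and 3.72% higher (52.2% of these calls were increases with TMM scaling and 67.3% with upper-quartile scaling). Leaving out single libraries changed this count. It was 0 without WT library 1, KO library 5 or KO library 7 (edgeR, with 5, 5 and 3 genes at an unadjusted p under 0.05), when 243, 271 and 361 of all genes were called against 1027 with all libraries. It was 1 without WT library 4 or KO library 6, and 2 without WT library 2, WT library 3 or KO library 8. With DESeq2 it was 5 over all libraries.

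Pdcd1lg2 (chromosome 19, 29410919 to 29471161, plus strand), the gene of PD-L2, was too low to be tested. It had 7, 9, 8 and 11 counts in WT libraries 1 to 4 and 5, 6, 6 and 4 counts in KO libraries 5 to 8. In CPM this was 0.172, 0.264, 0.219 and 0.316 in WT and 0.135, 0.150, 0.146 and 0.0959 in KO. The 4 KO libraries lay below the 4 WT libraries, but narrowly, the lowest WT count being 7 and the highest KO count 6. Of the tested genes, which leave out Pdcd1lg2, 12.7% had no overlap in one direction or the other. Without a filter the adjusted p of edgeR over 28193 genes was 0.635 in experiment 1, 0.435 in experiment 2 and 0.391 over both (log2 fold change -0.87 ± 0.42, unadjusted p = 0.0668). The opposite strand carries the antisense gene A930007I19Rik, with 359 counts over the 8 libraries.

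Cd83 (chromosome 13, 43784775 to 43803132, plus strand) moved in opposite directions in the 2 experiments. It had 44.1 and 41.0 CPM in WT libraries 1 and 2 and 54.3 and 47.2 CPM in KO libraries 5 and 6, and 95.3 and 124 CPM in WT libraries 3 and 4 against 28.3 and 24.1 CPM in KO libraries 7 and 8. KO lay above WT in experiment 1 and below it in experiment 2. The log2 fold change was 0.24 ± 0.08 in experiment 1 (adjusted p = 0.0387) and -2.06 ± 0.17 in experiment 2 (adjusted p = 0.00631), and the 2 effects differed (-2.32 ± 0.21, adjusted p = 0.000392). Without KO library 8 the call of experiment 2 was lost (adjusted p = 0.0543). The small rise in experiment 1 was not called by DESeq2 (adjusted p = 0.0836), nor with any of WT library 1, WT library 2 or KO library 5 left out (0.0626, 0.189 and 0.202, with 0.00645 to 0.202 over 9 alternatives), nor with the spread estimated over all 8 libraries (0.196). WT of experiment 2 was 2.57-fold above WT of experiment 1 (log2 difference 1.36 ± 0.15, adjusted p = 0.000919).

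Vsir (chromosome 10, 60346851 to 60372684, plus strand) was the gene that rose in both experiments. VISTA, its product, is a checkpoint protein found mainly on myeloid cells. It had 381 and 416 CPM in WT libraries 1 and 2 and 518 and 494 CPM in KO libraries 5 and 6. WT libraries 3 and 4 had 148 and 163 CPM, against 372 and 418 CPM in KO libraries 7 and 8. The rise was 1.27-fold in experiment 1 (log2 fold change 0.33 ± 0.07, adjusted p = 0.00407) and 2.54-fold in experiment 2 (1.35 ± 0.13, adjusted p = 0.00876), and it differed in size (1.00 ± 0.14, adjusted p = 0.00180). The call of experiment 2 was lost without KO library 8 (adjusted p = 0.0537). KO of experiment 2 (372 to 418 CPM) and WT of experiment 1 (381 to 416 CPM) overlapped. In WT, Vsir was 2.57-fold lower in experiment 2 than in experiment 1 (log2 difference -1.36 ± 0.10, adjusted p = 0.000311), opposite to Cd40 and Icosl. Over both experiments its log2 fold change was 0.84 ± 0.21 and not called (adjusted p = 0.0608). Cdh23 lies across Vsir on the opposite strand and had 27 counts in all 8 libraries together.

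Havcr2 (chromosome 11, 46454935 to 46481255, plus strand), the gene of TIM-3, was not called in either experiment. It had 40.8 and 39.4 CPM in WT libraries 1 and 2, 29.9 and 38.7 CPM in KO libraries 5 and 6, 13.9 and 35.9 CPM in WT libraries 3 and 4, and 27.2 and 30.7 CPM in KO libraries 7 and 8. WT libraries 3 and 4 differed 2.59-fold and spanned both KO libraries of their experiment. The log2 fold change was -0.24 ± 0.12 in experiment 1 (adjusted p = 0.152) and 0.22 ± 0.45 in experiment 2 (adjusted p = 0.763). In experiment 1 it was called without KO library 6 (log2 fold change -0.44, adjusted p = 0.00173, with 0.00142 to 0.644 over 9 alternatives). It depended on WT library 4 in experiment 2, without which the log2 fold change was 1.06 with an adjusted p of 0.0269, where the other alternatives gave up to 0.973.

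Set side by side, WT libraries 3 and 4 held the most Cd40, Cd80, Cd274, Icosl and Cd83 and the least Vsir of all 8 libraries. Of the 8 tested genes, 5 were higher and Vsir was lower in WT of experiment 2 than in WT of experiment 1, where 31.1% of all genes were called. Cd40, Icosl and Cd83 (more negative in experiment 2, with 20.6% of all genes) and Cd274 and Vsir (more positive, with 21.0%) responded to KO unequally in the 2 experiments, 5 of 8 genes. For Cd40, Icosl, Cd83 and Vsir the larger change was that of experiment 2, and for Cd274 that of experiment 1.

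Markers of other cells moved with some of these groups. The summed level of 10 dendritic cell markers was 39.7 to 51.4 CPM in WT of experiment 2, 27.8 to 38.9 in KO of experiment 1, 3.67 to 4.40 in WT of experiment 1 and 1.85 to 2.49 in KO of experiment 2. Itgax, an integrin that macrophages can also carry, made up most of it, and 3 of the 10 (Itgax, Fscn1 and Zbtb46) were tested. The untested markers reached at most 0.0293 (Flt3), 0.0541 (Siglech), 0.0822 (Cd209a), 0.137 (Ccr7), 0.201 (Clec9a), 0.323 (Dpp4) and 0.493 CPM (Xcr1) in any library. Fscn1, which bundles actin in mature dendritic cells, had 7.66 to 8.72 CPM in KO of experiment 1 and 3.68 to 7.04 CPM in WT of experiment 2, against at most 0.295 CPM in the other libraries (log2 fold changes 5.14 ± 0.27 and -5.06 ± 0.84, both called). Itgax was called in the same directions (3.11 ± 0.29 and -4.94 ± 0.35), and Zbtb46 was called in neither experiment (-0.24 ± 0.39 and -0.42 ± 0.42). Fibroblast markers summed to 178 to 235 CPM in KO of experiment 1 and to 2.18 to 12.1 CPM in the other libraries, with 7 of 8 tested and all 7 higher in KO of experiment 1 (27.0% of all genes were), among them the collagen genes Col1a2 (4.69 ± 0.43) and Col3a1 (5.99 ± 0.68) and the growth factor receptor Pdgfra (6.61 ± 0.27). The part of fibroblast or dendritic cell genes in the differences of Cd274 and the other genes was not tested. T cell markers summed to at most 4.88 CPM, with Cd4 and Lck at no more than 2.80 and 2.08 CPM and Cd3e at 0 counts, B cell markers to at most 5.66 CPM, nearly all of it Cd79b (at most 5.59 CPM), with Cd79a at no more than 0.0541 CPM, natural killer cell markers to at most 0.805 CPM, with Klrb1c at no more than 0.633 CPM, and neutrophil markers to at most 1.5 CPM, with S100a8 at no more than 1.33 CPM.

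Most genes listed for CD40 signalling fell in experiment 2, though signalling itself was not measured. Of 13 genes of this list, all tested, 11 fell in KO in experiment 2 and Map3k14, the kinase of the alternative NF-κB route, rose, the median of their log2 fold changes being -1.14. In experiment 1, 7 fell and 3 rose, with a median of -0.30. The shares of all genes were 8.29% lower and 7.52% higher in experiment 2, and 28.1% lower and 27.0% higher in experiment 1. Of all calls in experiment 1, 49% were increases with TMM scaling and 59.8% with upper-quartile scaling, which moved the median of all genes by 0.10 (log2). Called lower in both were Nfkb1, Nfkb2, Rel and Relb, which encode NF-κB subunits, Traf2, Traf3 and Birc3, which act at the receptor, and Map3k14 was called higher in both. Relb had a mean of 32.0 CPM in WT and 18.5 CPM in KO in experiment 1, and of 82.9 and 20.6 CPM in experiment 2 (log2 fold changes -0.81 ± 0.09 and -2.01 ± 0.14). Nfkb2 had 60.4 and 52.0 CPM in experiment 1 and 251 and 40.1 CPM in experiment 2 (-0.23 ± 0.07 and -2.65 ± 0.16). Birc3, an inhibitor of apoptosis bound to TRAF2, had log2 fold changes of -1.07 ± 0.12 and -1.92 ± 0.17. Like Cd40, 10 of the 13 were higher in WT of experiment 2 than in WT of experiment 1, where 15.7% of all genes were higher.

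Interferon gamma is a known inducer of Cd274. Of 8 genes of its signalling list, all tested, 6 fell in experiment 2 (median log2 fold change -1.30), while in experiment 1 Jak2 and Socs3 fell and Irf1 and Irf2 rose (median -0.07), 2 of 8 each way where 28.1% and 27.0% of all genes fell and rose. In experiment 2, 8.29% of all genes fell. Jak2 (log2 fold changes -0.37 ± 0.06 and -1.59 ± 0.17) and Socs3 (-1.90 ± 0.13 and -2.99 ± 0.53) were called lower in both experiments. Irf1, a transcription factor induced by interferon, went from 43.5 to 47.6 CPM in WT to 91.7 to 98.1 CPM in KO in experiment 1, and from 404 to 436 CPM in WT to 44.1 to 55.2 CPM in KO in experiment 2 (log2 fold changes 1.05 ± 0.07 and -3.08 ± 0.17). Ifngr1 and Ifngr2, the receptor chains, were called in experiment 2 (-1.01 ± 0.13 and -0.57 ± 0.12) and not in experiment 1 (0.17 ± 0.08 and -0.08 ± 0.06). Jak1 was called in neither (-0.06 ± 0.06 and 0.14 ± 0.12).

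**Figure D4:**
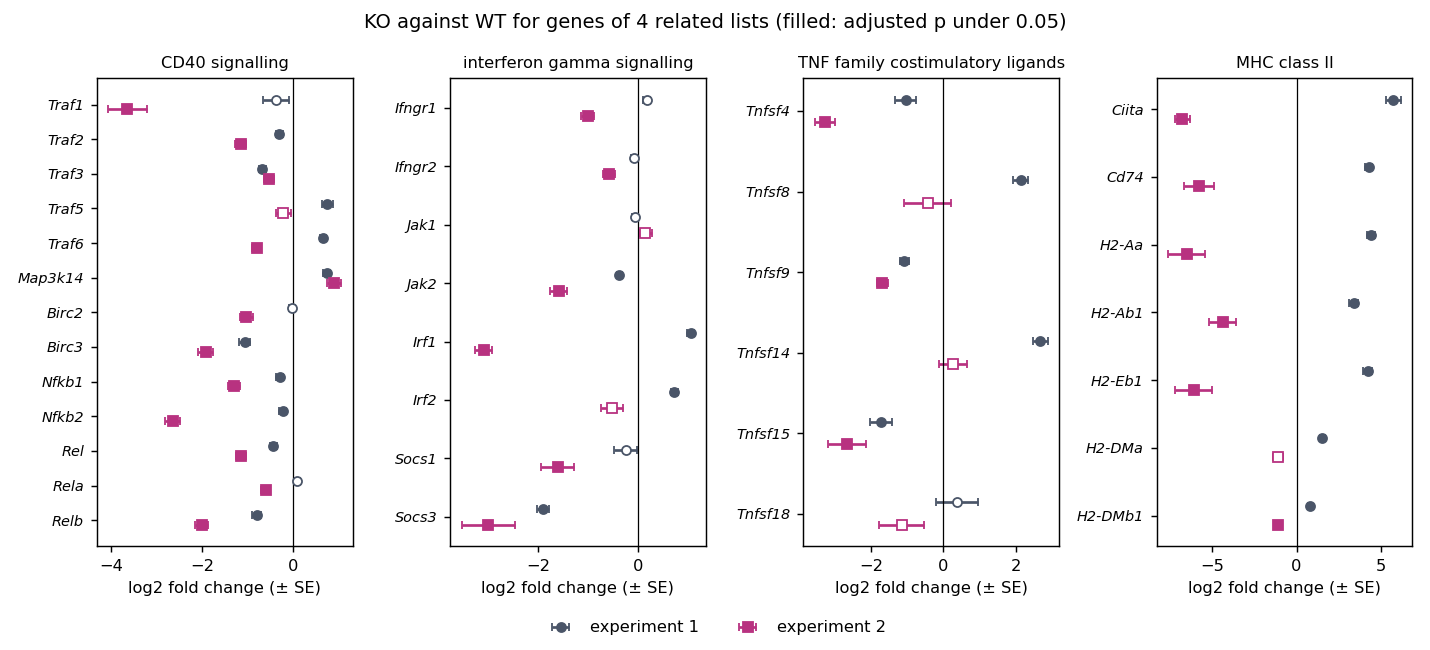
Log2 fold change of KO against WT (± standard error) for the tested genes of CD40 signalling, interferon gamma signalling, TNF family costimulatory ligands and MHC class II, with circles for experiment 1 and squares for experiment 2, filled where the adjusted p is under 0.05. The horizontal scale differs between panels. The MHC class II genes lie above 0 in experiment 1 and below 0 in experiment 2, and most CD40 signalling genes lie below 0 in both.

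TNF family ligands give costimulation after the first contact. Of 7 genes, 6 were tested, and Tnfsf4 (OX40 ligand), Tnfsf9 (4-1BB ligand) and Tnfsf15 (TL1A) were called lower in KO in both experiments, where 4.38% of all genes were called in the same direction in both. Tnfsf9 had 14.7 to 15.9 CPM in WT and 6.57 to 8.02 CPM in KO in experiment 1, and 37.4 to 39.8 CPM in WT and 10.8 to 13.3 CPM in KO in experiment 2 (log2 fold changes -1.08 ± 0.13 and -1.69 ± 0.15). Its genotypes did not overlap in either experiment, as for 79.9% of all genes in experiment 1 and 65.4% in experiment 2. Tnfsf4 fell by 1.05 ± 0.29 and by 3.27 ± 0.28 on the log2 scale, and Tnfsf15 by 1.73 ± 0.30 and 2.65 ± 0.53. Tnfsf8 (2.13 ± 0.21) and Tnfsf14 (2.67 ± 0.20) rose in experiment 1 and were not called in experiment 2 (-0.43 ± 0.65 and 0.26 ± 0.40).

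Other checkpoint ligands did not share one direction. Of 15 genes, 10 were tested. In experiment 1, 4 fell and 3 rose (median log2 fold change 0.07), where 55.1% of all genes were called, and in experiment 2, 1 fell (median -0.29), where 15.8% were. Cd47, the signal that restrains phagocytosis, was lower in KO of experiment 1 (-0.62 ± 0.05) and not called in experiment 2 (-0.30 ± 0.16). Lgals9, a ligand of TIM-3, rose in experiment 1 (0.76 ± 0.05) and was not called in experiment 2 (-0.84 ± 0.34). Pvr, a ligand of TIGIT, had a log2 fold change of -0.92 ± 0.10 in experiment 1 and of -0.28 ± 0.17 in experiment 2, called in the first.

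The surface level of these proteins also depends on partners that act after transcription. Cmtm6, which holds PD-L1 at the surface, was called in neither experiment (log2 fold change 0.15 ± 0.05 and -0.12 ± 0.14). March8, a ubiquitin ligase that acts on membrane proteins, was higher in KO of experiment 2 (0.60 ± 0.12) and not called in experiment 1 (-0.08 ± 0.06). Of the 6 genes of this list, 3 fell in experiment 1 and 2 rose in experiment 2, with medians of -0.13 and 0.56, where 28.1% of all genes fell in experiment 1 and 7.52% rose in experiment 2. Spop, an adaptor of a ubiquitin ligase, fell in experiment 1 (-0.20 ± 0.06) and was not called in experiment 2 (-0.16 ± 0.12). Counts of mRNA do not show how much protein reached the surface.

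MHC class II genes, which provide the antigen that costimulation accompanies, took opposite directions in the experiments. All 7 rose in KO in experiment 1 (median log2 fold change 4.21) and 6 of 7 fell in experiment 2 (median -5.78). Of all genes, 27.0% rose in experiment 1, 8.29% fell in experiment 2 and 6.34% were called in opposite directions. Cd74, the invariant chain, had a log2 fold change of 4.27 ± 0.21 in experiment 1 and of -5.78 ± 0.89 in experiment 2. H2-Aa, a chain of the antigen-presenting dimer, went the same way (4.40 ± 0.23 and -6.51 ± 1.09), and so did H2-DMb1, of the peptide exchanger H2-DM, by less (0.78 ± 0.09 and -1.09 ± 0.20). Ciita, their master regulator, had at most 0.352 CPM in WT of experiment 1 and 10.8 to 18.5 CPM in KO, and 17.5 to 19.9 CPM in WT of experiment 2 and at most 0.268 CPM in KO. Among cytokines given with costimulation, 6 of 9 were tested, with 2 lower and 2 higher in KO of experiment 1 and 4 lower in experiment 2, where the shares of all genes were 28.1%, 27.0% and 8.29%. Il15 rose in experiment 1 (1.47 ± 0.11) and fell in experiment 2 (-2.13 ± 0.19), Il10 fell in experiment 1 (-1.86 ± 0.20) and was not called in experiment 2 (0.21 ± 0.25), Il6 fell in both (-5.25 ± 0.54 and -4.20 ± 0.84), and Tgfb1 was called in neither (0.00 ± 0.06 and -0.17 ± 0.11).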

How the data were processed

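The authors deposited raw counts per gene symbol for the 8 libraries, in 1 table per experiment. Libraries were made with a stranded mRNA kit. The submitters' processing notes name STAR 2.7.0f, Subread 1.6.4 with featureCounts, DESeq2 1.22.1 and the build GRCm38. The annotation and the strand setting of the counting are not given in the sources used here. The authors' normalized counts were not used.

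Both tables were joined on the symbol. Of 53735 symbols, filterByExpr by genotype kept 14418, scaled by TMM. KO was compared with WT within each experiment (2 against 2 libraries), as the study did, by edgeR 4.0.16 (robust quasi-likelihood, Benjamini-Hochberg over all genes tested, threshold 0.05) in R 4.3.3. Further fits covered all 8 libraries with experiment as a term, the interaction of genotype and experiment, and WT of experiment 2 against WT of experiment 1. CPM values are counts divided by the TMM-scaled library size. Levels per kb use exon lengths of GENCODE M21 (GRCm38), as do gene positions. Fold ratios are ratios of group mean CPM. DESeq2 1.42.0, upper-quartile scaling, 2 other filters, other models and leaving out each library were tried as alternatives. The fits were tested on simulated data.

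The genes described, the related lists and the tests were chosen with earlier results of these data known. Of each related list, the text names the 3 genes of highest mean CPM and up to 4 genes called in the same direction in both experiments, and for each of the 8 tested genes the gene most like it (mean log2 CPM of at least 3). Irf1, Irf2, Traf3, Map3k14, Tnfsf14, Ciita and markers at or near 0 fall outside this rule and were named after their values were seen. Some genes of the related lists are not reported here, and the lists' counts leave them out.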

Additional observations from a re-analysis of the deposited data

Results flagged for a closer look

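The effect of KO differed between the experiments, by the interaction term of edgeR with Benjamini-Hochberg adjustment, for Cd40 (log2 difference, experiment 2 minus experiment 1, -4.16, adjusted p = 0.000153), Icosl (-2.97, adjusted p = 9.15e-05), Cd83 (-2.32, adjusted p = 0.000392), Cd274 (1.03, adjusted p = 0.0110) and Vsir (1.00, adjusted p = 0.00180). Mkl1 itself differed in the same way (-0.79, adjusted p = 0.0238), with KO libraries at 19.5 and 20.9 CPM in experiment 1 and at 14.6 and 10.4 CPM in experiment 2. The call for Mkl1 was lost without library 1, 2, 4, 5 or 6 (adjusted p = 0.0587 to 0.0879, with 0.00106 to 0.0879 over 12 alternatives). Of all genes, 41.6% passed this test. The part of the remaining Mkl1 reads in the differences of the other genes was not tested.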

How the results depend on the processing

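Over 448 values of the 8 genes under the alternatives, 389 kept their direction and their side of the threshold, 29 lost the call, 13 gained one and 17 changed direction. With 1 library left out, the lone library of its group is assumed to vary like the others. The number of the 8 genes called then ranged from 4 to 7 in experiment 1, from 2 (without library 8) to 7 in experiment 2, from 0 to 2 over both experiments, from 5 to 6 for the interaction and from 5 to 7 between the WT groups. Over both experiments it was 5 with DESeq2, and 0 in edgeR without the experiment term or with KO libraries swapped across experiments (4 and 5 at an unadjusted p under 0.05). Directions changed for genes that were not called. The log2 fold change of Cd40 in experiment 1 was -0.030 without a filter and ranged from -0.13 to 0.14 with 1 library left out. In the same fits Cd86 ranged from -0.23 to 1.23 in experiment 2, from -0.50 to 0.088 over both and from -1.26 to 0.015 between the WT groups, and Havcr2 from -0.31 to 1.06 in experiment 2, from -0.26 to 0.25 over both and from -0.052 to 1.29 for the interaction. Over both, Havcr2 was 0.059 with upper-quartile scaling and 0.013 with at least 10 counts in every library. Of all genes, 2279 were called in experiment 2, 232 to 1388 with 1 library left out and 4899 with 1 fit of all 8 libraries. Over both experiments 1027 were called, 2492 by DESeq2, 243 to 1100 with 1 library left out, 4 without the experiment term and 26 with KO exchanged. The interaction gave 5996 and 3935 to 6508, and the WT groups 4485 and 1625 to 5295. The fits with 1 library left out hold fewer samples, and the cause of these changes in number was not tested. No paired analysis was possible because the groups share no replicate numbers. Depth limits Pdcd1lg2, with 4 to 11 counts per library.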

Other observations

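Of 10 T cell receptors for these ligands, Cd28 and Icos were expressed highly enough to be tested. Cd28, the receptor of CD80 and CD86 on T cells, had 31.6 to 32.1 CPM in WT and 139 to 154 CPM in KO of experiment 1, and 55.9 to 61.1 CPM in WT and 26.8 to 29.4 CPM in KO of experiment 2. It rose in experiment 1 (log2 fold change 2.19 ± 0.07, edgeR, adjusted p = 6.55e-07) and fell in experiment 2 (-1.06 ± 0.11, adjusted p = 0.010). Cd3e, Ctla4 and Cd40lg had 0 counts in every library, Pdcd1 had 3 counts in all, and Icos reached at most 0.325 CPM. The cells that carried the Cd28 reads were not identified.

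Of 12 inhibitory receptors of myeloid cells, all tested, 5 fell and 6 rose in KO in experiment 1, and 1 fell and 2 rose in experiment 2. Of all genes, 28.1% fell and 27.0% rose in experiment 1, and 8.29% fell and 7.52% rose in experiment 2. Sirpa, the receptor of CD47, fell in experiment 1 (log2 fold change -0.22 ± 0.07) and was not called in experiment 2 (0.33 ± 0.16). Pirb and Lilrb4a, which carry inhibitory motifs, rose in experiment 1 (0.36 ± 0.11 and 0.83 ± 0.17) and were not called in experiment 2 (-0.50 ± 0.19 and -1.12 ± 0.29).

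Among 9072 genes with enough expression, the gene whose log2 CPM followed each member most closely over the 8 libraries, by Pearson's r, was Aqr for Cd40 (0.992), Cxcl1 for Cd80 (0.996), Rny3 for Cd86 (0.986), Fam188a for Cd274 (0.995), Snx20 for Icosl (0.995), Fopnl for Cd83 (0.989), Tgfbr1 for Havcr2 (0.954) and Il16 for Vsir (0.996). Among the 8 genes themselves, Cd40 and Icosl were most alike (0.983), Cd80 was nearest to Icosl (0.927), Cd274 to Cd80 (0.756) and Cd86 to Cd274 (0.172), and Vsir ran opposite to Cd40 (-0.953). These are descriptions over 8 libraries that share 4 groups, and the highest of many correlations is high in part because it was picked.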
